A study of Danio rerio with 40 samples.

Results

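The ovaries of zebrafish (*Danio rerio*, strain AB) reared at high or at low density were examined for DNA methylation in the promoters of 6 genes. All samples labelled as ovaries were taken, which gave 20 of the 40 gonads of the study, and the remaining 20 gonads were testes. The 10 high density ovaries came from females confined at 66 fish/L from 18 to 45 days post fertilization (dpf) and kept below 16 fish/L afterwards, after a start at 9 fish/L. The 10 control ovaries came from females kept at 9 fish/L throughout. All females were sampled as adults at 90 dpf. The labels name no mutation, transgene or agent in either group, and per the study's methods the fish came from a single family, so the ovaries of both groups were from siblings. The tank of each fish is not given in the sources used here, so a difference between tanks cannot be told apart from one between densities. Each ovary was one library of one fish, and ovaries are named here by group and fish number, for example high density ovary G12 or control ovary G6. Whole ovaries were measured, so a different share of oocytes, follicle cells and other cells cannot be told apart from a different methylation level per cell.

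Methyl groups on cytosines that precede a guanine (CpG sites) are copied to the new strand after DNA replication, and dense methylation around a transcription start site often goes with a silent gene. Laboratory strains of zebrafish lack a clear sex chromosome, and crowding of young fish is known to change the share of males. The 6 genes have roles on either side of that decision and in the stress axis. *dnmt1* encodes the maintenance DNA methyltransferase, *dmrt1* a transcription factor needed for testis development, and *cyp19a1a* the gonadal aromatase that turns androgens into estrogens. *cyp11c1* encodes a steroid hydroxylase that makes cortisol and oxygenated androgens, *hsd17b1* an enzyme that turns estrone into estradiol, and *hsd11b2* an enzyme that inactivates cortisol and takes part in making the main fish androgen.

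DNA was treated with bisulfite, which converts unmethylated cytosines and leaves methylated ones, then amplified by PCR around each transcription start site and sequenced. The primers define which DNA was read, and those of the 4 genes on which the results turn most are shown 5′ to 3′, in lower case.
*dnmt1* forward: aaatttatgggtaaatatgtatttttgag
*dnmt1* reverse: aaatcttaataaacatttcaaattc
*dmrt1* forward: aatattttttattgtggtgtttgtt
*dmrt1* reverse: caaaataacctctcataaccttatc
*cyp19a1a* forward: tattttttgtttgtttgtaggtttgat
*cyp19a1a* reverse: caacaatattataactataactccacac
*hsd17b1* forward: attgtgattaaaaatttataagatgtatga
*hsd17b1* reverse: caataatcatacattaaacacaaaataata
The forward primers hold 0 cytosines and the reverse primers 0 guanines, so they match converted DNA, and they hold 0 CpG sites, so a methylated and an unmethylated copy bind them alike. In the GRCz11 build, the *dnmt1* amplicon (chr3:54352441-54352912, minus strand, 472 bp) holds 26 CpG sites, all upstream of the start site. The *dmrt1* amplicon (chr5:44344542-44345024, plus strand) holds 24, of which 10 lie upstream. The *cyp19a1a* amplicon (chr18:39655109-39655578, minus strand) holds 15, of which 9 lie upstream. The *cyp11c1* amplicon (chr16:54645580-54645995, minus strand) holds 19 sites and reaches mainly into the gene, with 2 of them upstream. The *hsd17b1* amplicon (chr3:17897321-17897746, minus strand) holds 6, all upstream, and that of *hsd11b2* (chr7:34854510-34854994, minus strand) holds 9, of which 5 lie upstream. Whether a site downstream of the start lies in an exon or in an intron was not analysed here. Sites are named below by their distance from the start site, negative upstream.

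A methylation level is the percent of reads at a cytosine that were methylated, and the level of a gene in an ovary is the mean over the cytosines of its amplicon covered by more than 5 reads. For most amplicons the lists hold more cytosines than there are CpG sites. The additional, shallower ones appear where reads are many, and their levels are mostly near 0. Which of the listed cytosines belong to CpG sites was not checked against a reference sequence. Of 46 such cytosines, 42 averaged under 1% methylation over the ovaries. They lower the mean of a deeply read ovary, since the number of cytosines used followed the coverage of the amplicon over the 20 ovaries (a description over libraries, *r* = 0.954 for *cyp19a1a* and 0.966 for *hsd11b2*). *cyp19a1a* thus had 15 to 23 cytosines in its mean and *dmrt1* had 24 in every ovary. Levels are therefore also given over the deepest cytosines, as many per amplicon as it has CpG sites, 99 in all, which passed the minimum in all 20 ovaries.

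The summed median coverage of the 6 amplicons had a lowest, median and highest value of 11417, 34218 and 90073 reads in high density ovaries, and of 5411, 44129 and 86513 reads in control ovaries (exact permutation *p* = 0.824). The *dmrt1* amplicon stood apart in depth. Its median coverage was 97, 1022 and 5628 reads (lowest, median, highest) in high density ovaries, against 9, 69 and 1607 reads in control ovaries. The geometric mean was 12.6-fold higher at high density (exact permutation *p* = 0.00121, adjusted over 6 genes 0.00727), while the other 5 amplicons gave adjusted *p* between 0.686 and 0.850. In the shallowest ovary of each group a share had to reach 3.09% at high density and 33.3% in controls for 3 methylated reads to be counted at a *dmrt1* site, while for *dnmt1* these limits were 0.10% and 0.12%. The *dmrt1* levels under higher coverage minimums are given with its comparison. Such limits, and the interval given below for a single percent, cover counting error only, since copies made by PCR are not independent molecules. The intervals of a difference between groups come from the exact test over fish and reflect the variation between ovaries.

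The ovaries were first set against the testes to check the labels. At the deepest cytosines *dmrt1* was methylated at 21.6% to 51.5% in the 20 ovaries and at 0.95% to 5.04% in the 20 testes. *cyp19a1a* lay at 24.5% to 50.2% in ovaries and at 69.5% to 95.9% in testes, and *hsd17b1*, *hsd11b2* and *cyp11c1* were likewise lower in ovaries. In each of these 5 genes 20 of 20 ovaries fell outside the range of the testes. Ovaries also differed more from one another, with a standard deviation (SD) of 6.81 percentage points within density groups for *hsd17b1* in ovaries against 0.745 in testes, and 7.07 against 1.98 for *hsd11b2*. The sexes lay closer for *cyp19a1a*, with 7.43 in ovaries against 5.55 in testes.

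The study's question was whether crowding of young females leaves a methylation difference in the mature ovary. At the level of genes, the ranges of the groups overlapped for all 6, and 0 of 6 gene levels (0% of those tested) differed after adjustment (exact permutation test over all 184756 splits of 20 fish, Benjamini-Hochberg). Unadjusted, 1 of 6 genes (16.7%) had *p* under 0.05, and a quasi-binomial model on summed reads called 0 of 6. Tukey's comparison of the 4 groups of gonads, a test that the study used, gave *p* = 0.0174 for *dnmt1* within that gene. Adjusted over the 6 genes, this Tukey *p* was 0.104. The *dnmt1* promoter was almost unmethylated in every ovary, at 0.158%, 0.310% and 0.598% (lowest, median, highest) in high density ovaries and at 0.148%, 0.602% and 0.827% in control ovaries. All 10 high density ovaries lay inside the control range and 9 of 10 below the control mean. Its difference was -0.233 percentage points (95% interval -0.410 to -0.0549, exact permutation *p* = 0.0145, adjusted 0.0870). Unmethylated cytosines left unconverted by bisulfite also read as methylated, so a gene mean this low does not by itself tell methylation from incomplete conversion. The single *dnmt1* sites behind these means are described below. With levels corrected for the conversion efficiency of each fish, the difference was -0.265 (exact permutation *p* = 0.0088, adjusted 0.0528). That correction subtracts the unconverted share of each fish, which by the study's mean conversion is of the size of these levels. Corrected levels can thus fall below 0, which no methylation level can, so that value is not a more exact estimate. Whether it passed after adjustment depended on single fish. Without control ovary G6, the lowest of its group, the difference was -0.278 (adjusted exact *p* = 0.0168), and without high density ovary G18, the highest of its group, it was -0.265 (adjusted exact *p* = 0.0386). Leaving out either of these 2 necessarily widens the gap between the means. With each of the other 18 ovaries left out in turn, it did not pass (adjusted exact *p* between 0.0574 and 0.166). It was -0.236 over the deepest cytosines (adjusted exact *p* = 0.189). With the median over cytosines it was 0.0282, the opposite direction (adjusted exact *p* = 0.552).

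Among the sex-related genes, *dmrt1* lay at 21.6%, 29.5% and 41.2% in high density ovaries and at 23.3%, 29.9% and 51.5% in control ovaries. The medians nearly coincided, and 8 of 10 high density ovaries fell inside the control range. The difference of the means was -3.58 percentage points (95% interval -10.9 to 3.67, exact permutation *p* = 0.322). It was -4.70 with at least 10 reads per cytosine, which left 9 control ovaries, -6.50 with at least 30 reads, which left 7, and -5.98 without the 3 ovaries under 20000 summed reads, and it did not pass in any of these settings. Without control ovary G6 it was -1.53. *cyp19a1a* lay at 18.4%, 30.1% and 44.5% in high density ovaries and at 21.8%, 33.8% and 39.5% in control ovaries, a difference of -1.72 (interval -8.81 to 5.41). At its deepest cytosines, which leave out the positions near 0, it averaged 35.9% ± 7.48 at high density and 39.3% ± 7.37 in controls (SD, n = 10 each), with a difference of -3.48 (interval -10.5 to 3.53, exact permutation *p* = 0.305). Differences of several percentage points in either direction lie within these intervals.

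The steroid and stress genes were as close. *cyp11c1*, the most methylated gene, lay at 45.7%, 54.1% and 63.7% in high density ovaries, against 43.5%, 58.9% and 66.6% in control ovaries, and its interval ran from -8.11 to 4.46 percentage points. *hsd17b1* lay at 16.8%, 25.4% and 41.4% at high density and at 21.2%, 24.8% and 37.7% in controls (interval -7.54 to 6.24). In that gene only 5 of 10 high density ovaries fell inside the control range, and those outside lay on both sides of it. The highest of the group, G6, had 6 cytosines in its mean, and the lowest, G18, had 9. Over the deepest cytosines 6 of 10 high density ovaries fell inside the control range. *hsd11b2*, the only gene with a higher mean at high density over all cytosines, lay at 11.2%, 17.7% and 29.7% in high density ovaries and at 10.9%, 18.6% and 28.6% in control ovaries (difference 0.725, interval -4.57 to 6.02). Its difference was -0.289 over the deepest cytosines, so that its direction depended on which cytosines were averaged. The adjusted exact *p* of the 5 genes other than *dnmt1* was 0.837.

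**Figure D1:**
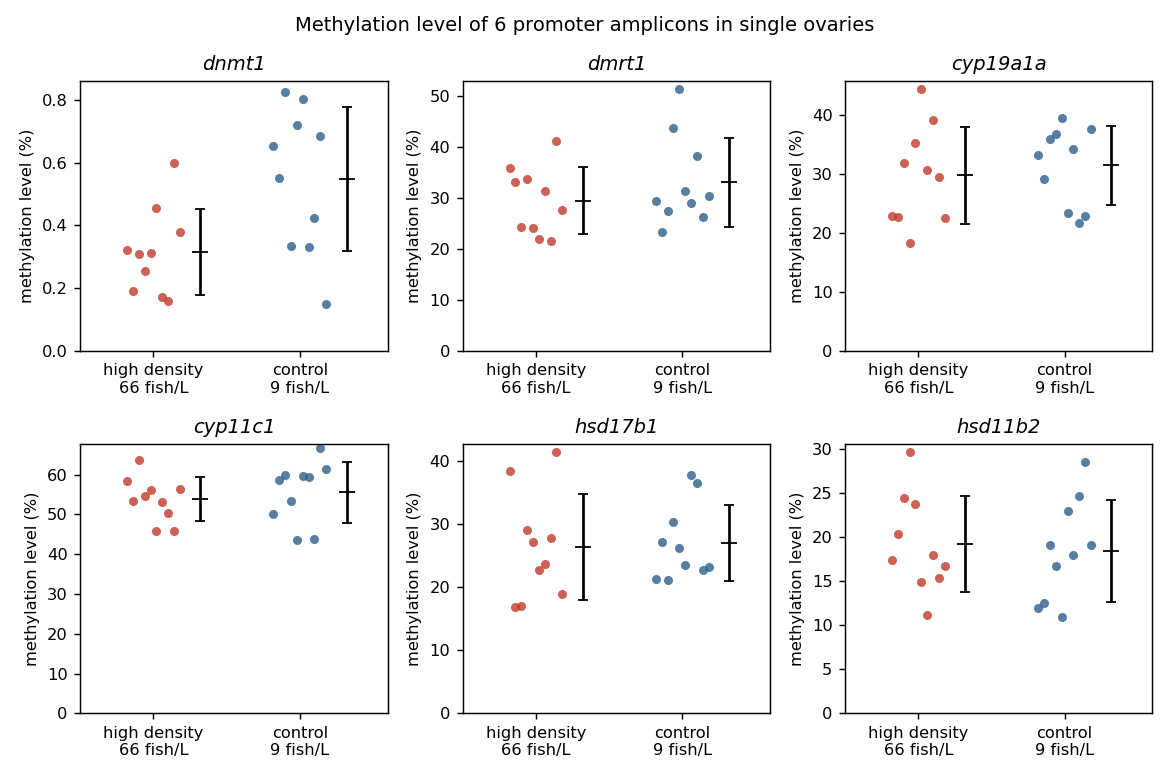
Methylation level (%) of the 6 amplicons in single ovaries, high density left and control right in each panel, each point being one ovary and the bar the mean with its SD (n = 10 each). The groups overlap in every panel, and the *dnmt1* axis ends below 1% while *cyp11c1* lies between 43.5% and 66.6%.

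The spread between fish was compared as the mean absolute deviation from the group median. For *dnmt1* it was 0.0982 percentage points in high density ovaries and 0.190 in control ovaries (exact permutation *p* = 0.0717, adjusted over 6 genes 0.430), an SD ratio of 0.597. *hsd17b1* went the other way, with 6.47 at high density and 4.59 in controls, an SD ratio of 1.39. Over its deepest cytosines the SD was 7.41 at high density and 6.15 in controls. The adjusted exact *p* of the 5 genes other than *dnmt1* lay between 0.836 and 0.868, so none passed.

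Single cytosines with at least 6 fish in each group numbered 117. The mean was lower at high density at 79 of them (67.5%), higher at 31 and equal at 7. The median difference was -0.645 percentage points, and over the 99 deepest cytosines it was -1.21 with 75 lower and 24 higher. This leaning was uneven over the genes. Among the deepest sites 14 of 15 were lower in *cyp19a1a*, 20 of 24 in *dmrt1*, 13 of 19 in *cyp11c1*, 6 of 6 in *hsd17b1*, 17 of 26 in *dnmt1* and 5 of 9 in *hsd11b2*. Sites of one amplicon share their reads and moved together from fish to fish in most genes, as described below, so these counts are not counts of independent sites. Levels of some genes were also correlated over the same ovaries, so the counts of different genes are not independent of each other either. After adjustment 0 of 117 differed (0%) by the exact permutation test. Unadjusted, 5 of 117 had *p* under 0.05 (4.27%), 3 of them lower (2.56%) and 2 higher (1.71%) at high density. The quasi-binomial model called 0 of 106 after adjustment (0%) and 9 before it (8.49%). Fisher's exact test on pooled reads, which treats the reads of all fish as independent, called 87 of 117 (74.4%).

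The largest difference among the 5 was at *dmrt1* +161 (chromosome 5, position 44344952), which averaged 60.4% ± 9.98 in high density ovaries and 72.7% ± 11.6 in control ovaries (SD, n = 10 each, exact permutation *p* = 0.0205). It was covered by 97 to 5627 reads at high density but by only 9 to 1608 in controls. *dmrt1* +208, with a similar depth, was also lower, at 34.8% ± 7.69 at high density against 41.4% ± 6.07 in controls (exact permutation *p* = 0.0476). Both lie downstream of the start site, in a stretch that also holds the most methylated *dmrt1* site, +164, at 73.2% ± 9.55 in high density ovaries and 77.2% ± 6.43 in control ovaries. The other 3 were *dnmt1* sites with mean levels under 1%. A mean this low does not by itself tell methylation from incomplete bisulfite conversion. *dnmt1* -123 averaged 0.323% ± 0.235 at high density and 0.140% ± 0.0716 in controls (exact permutation *p* = 0.00171, adjusted over 117 sites 0.20), which is the opposite direction to the gene mean. High density ovary G3 alone had 0.956% there and the next highest of its group 0.444%. *dnmt1* -176 was higher at high density and -186 lower, with exact permutation *p* of 0.0234 and 0.0416. Their adjusted *p* lay between 0.912 and 0.934. At -176 high density ovary G16 alone had 2.54% and the next highest of its group 0.382%.

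In the steroid genes the site with the smallest *p* did not pass the unadjusted threshold. *cyp19a1a* -149 (chromosome 18, position 39655401) averaged 33.5% ± 7.15 in high density ovaries and 40.1% ± 7.70 in control ovaries (exact permutation *p* = 0.0612, n = 10 each). *cyp11c1* +180 (chromosome 16, position 54645614) averaged 93.7% ± 5.52 at high density and 87.3% ± 9.09 in controls (exact permutation *p* = 0.0719). The largest difference of *cyp11c1* had the opposite sign, at +73, with 27.7% ± 15.8 at high density against 38.1% ± 21.1 in controls, and was smaller than the SD between fish. *hsd17b1* -44, its most methylated site, had 36.7% ± 8.94 at high density and 40.1% ± 7.72 in controls. For *hsd11b2* the smallest *p* was at -303, a position near 0 in both groups (0.141% ± 0.12 at high density and 0.271% ± 0.24 in controls, exact permutation *p* = 0.145).

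The order of levels along each promoter was shared by high density and control ovaries. Site means of the groups correlated across sites at 0.997 for *hsd17b1* (n = 6 sites), 0.983 for *hsd11b2* (n = 9), 0.976 for *dmrt1* (n = 24), 0.971 for *cyp11c1* (n = 19) and 0.854 for *cyp19a1a* (n = 15). These are descriptions across sites of one set of libraries. *dnmt1*, with all levels near 0, gave 0.019 (n = 26).

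Each gene had its own shape. *dmrt1* was lowest just past the start site, at 10.8% ± 5.48 in high density ovaries and 9.05% ± 5.6 in control ovaries at +28, and highest at +164. *cyp19a1a* was flat, with deepest sites averaging between 32.5% and 43.9% over the 20 ovaries. *cyp11c1* was uneven, with 38.4% at -64, 32.9% at +73, the lowest of its deepest sites, and 96.7% at +189, the highest, over the 20 ovaries. The deepest sites of *hsd11b2* had 19.3% to 24.4% upstream and 30.4% to 41.3% downstream. Fish differed most at +97 in *dmrt1* (22.6% ± 7.44 in high density ovaries and 31.9% ± 19.2 in control ovaries) and at -269 in *cyp19a1a* (34.0% ± 10.4 at high density and 37.9% ± 10.3 in controls). The highest sites of *cyp19a1a* and *hsd11b2* both lay downstream, at +37 with 44.2% ± 7.30 at high density and 43.7% ± 6.78 in controls, and at +38 with 42.5% ± 6.62 at high density and 40.2% ± 8.86 in controls. *hsd11b2* varied most at -280, with 14.8% ± 11.8 in 8 high density ovaries and 12.3% ± 9.21 in 7 control ovaries. That cytosine is not among the deepest, with 6 to 86 reads at high density and 18 to 141 in controls. Of its deepest sites +64 varied most, with 41.4% ± 9.46 at high density and 39.0% ± 9.07 in controls. *hsd17b1* was lowest at -246, with means of 4.68% in 9 high density ovaries and 2.88% in 10 control ovaries. This cytosine is not among the deepest either, with 17 to 93 reads at high density and 9 to 91 in controls. Of the deepest *hsd17b1* sites -245 was lowest, at 13.7% in both groups.

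Over the deepest cytosines the upstream mean lay below the downstream mean in 20 of 20 ovaries for *cyp11c1* (43.3% and 72.0%) and in 20 of 20 for *hsd11b2* (21.7% and 37.3%), in 16 of 20 for *cyp19a1a* and in 13 of 20 for *dmrt1*. For *cyp11c1* the upstream mean rests on only 2 sites, against 17 downstream.

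Whether density altered that slope was tested on the upstream minus downstream contrast. For *cyp11c1* it was -42.2 ± 6.49 percentage points in high density ovaries and -35.3 ± 7.27 in control ovaries (difference -6.96, exact permutation *p* = 0.0357, adjusted over 4 genes 0.143). Over the deepest cytosines the difference was -5.86 with an exact *p* of 0.358. *cyp19a1a* had -1.53 over all cytosines (exact *p* = 0.398) and -1.93 over the deepest (exact *p* = 0.0505, adjusted 0.202). The contrasts of *dmrt1* and *hsd11b2* differed by 2.18 (exact *p* = 0.325) and -2.27 (exact *p* = 0.446).

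**Figure D2:**
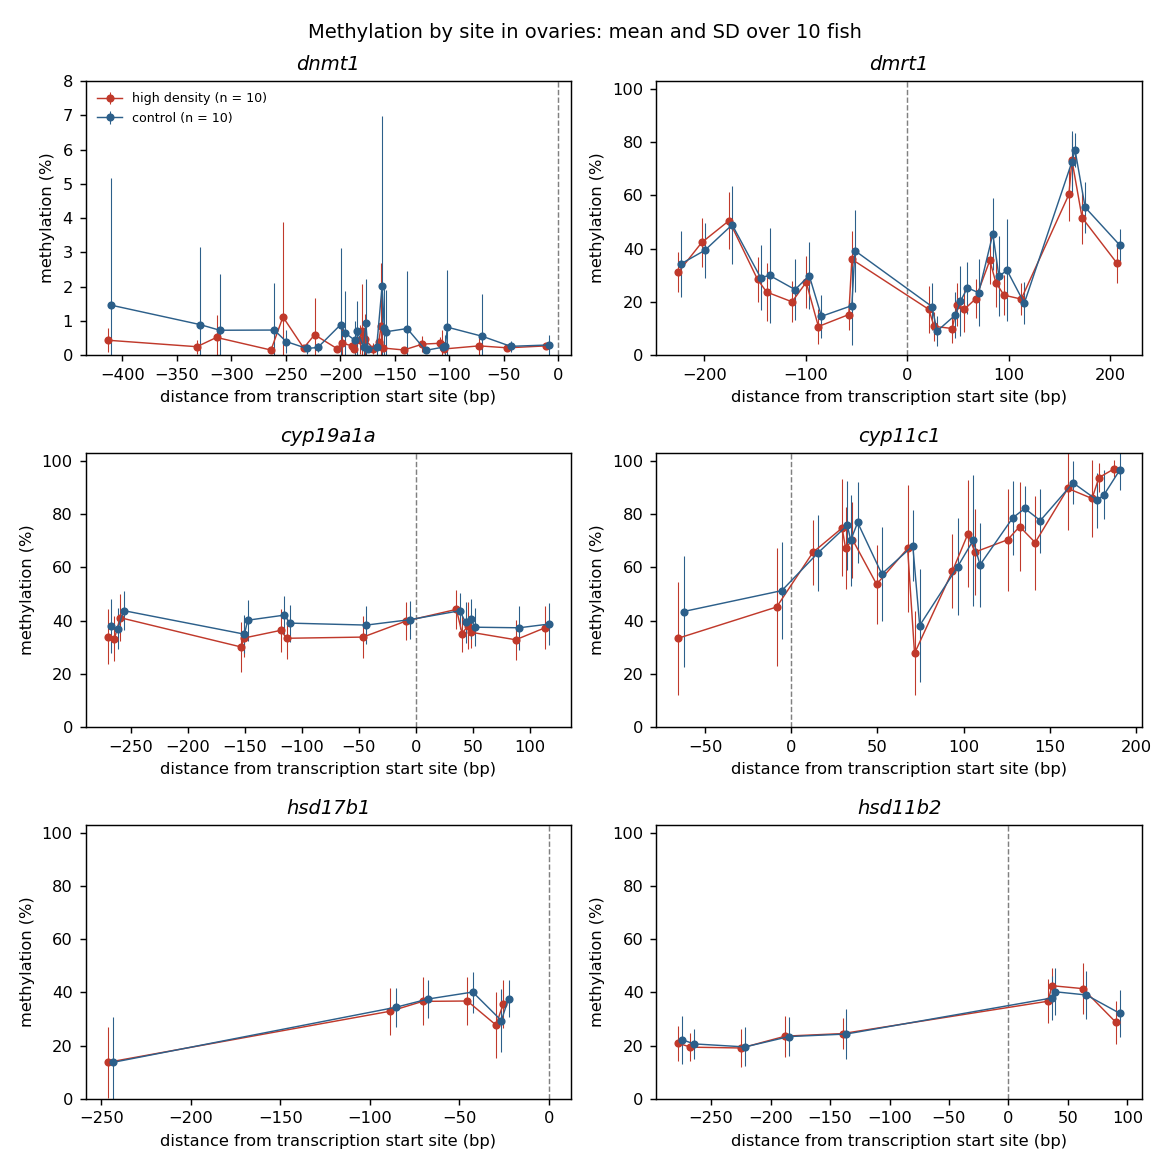
Mean methylation (%) at the deepest cytosines of each amplicon against the distance (bp) from the transcription start site, with high density in red, control in blue, bars for the SD over 10 fish and a dashed line at the start site (bars of *dnmt1* are cut at 0). The profiles of the groups lie within one SD of each other along most of each amplicon, with *dmrt1* lowest near +28 and *cyp11c1* highest at +189.

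The sites of a promoter did not vary alike in the 6 genes. In *cyp19a1a* a fish that was high at one site was high at all. Within density groups 105 of 105 pairs of deepest sites correlated positively, the median *r* was 0.908, and 88.7% of the variance between fish was common to the sites. *hsd11b2* behaved in the same way, with 36 of 36 pairs positive and 79.2% common. In *dmrt1* 275 of 276 pairs were positive and 53.7% of the variance was common, and there the counting error of a single site, 5.36 percentage points, was close to the SD left to single sites, 7.10. In *cyp11c1* only 31.0% was common although counting error was 0.781, since single sites varied on their own by 13.3 percentage points. Its +104 site had the largest SD, at 72.6% ± 20.2 in high density ovaries and 70.1% ± 24.5 in control ovaries. *dnmt1* had no common part (0%, 112 of 325 pairs positive), although the highest *r* of a pair was 0.997. These are descriptions over the 20 ovaries, and the sites of a fish share its library.

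*dnmt1* was looked at site by site for that reason, with measures chosen after the values were seen. Most of its 26 sites lay well under 1% in every ovary, and the median over sites averaged 0.226% in high density ovaries and 0.203% in control ovaries (exact permutation *p* = 0.399, n = 10 each). The gene means were set apart by few values of 1% or more. There were 11 such values among 260 in high density ovaries, against 30 among 260 in control ovaries, and 5 high density ovaries had none against 1 control ovary. Per ovary this came to 1.1 at high density against 3 in controls (exact permutation *p* = 0.0447). Control ovaries G2 with 8 and G14 with 6 held the most, and the values of an ovary are not independent of each other. Values of 1% or more made up 26.5% of an ovary's summed methylation at high density and 60.8% in controls (exact permutation *p* = 0.0179). The mean of the values below 1% was 0.243% at high density and 0.202% in controls (exact permutation *p* = 0.152), the opposite direction. Values this low, and the medians, cannot be told apart from incomplete bisulfite conversion. Since these measures were chosen on the same fish, their *p* are a description.

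The high values fell on different sites in different fish. Of the 26 sites 22 had one in some ovary, 7 had one in both groups, 9 had one in a single ovary, and no site had one in more than 4 ovaries. The highest value at high density was 9.02% at -251 in ovary G18, from 2674 of 29661 reads, followed by 6.01% at -161 in ovary G11, from 273 of 4541 reads. Control ovary G5 had 15.9% at -163, from 1435 of 9042 reads (95% Wilson interval 15.1% to 16.6%), and control ovary G1 had 12% at -412, from 876 of 7313 reads. Counting error was thus far smaller than these values. Site -163 showed the largest mean difference of *dnmt1*, 0.381% ± 0.187 at high density and 2.03% ± 4.94 in controls, and control ovary G5 alone carried it. The other control ovaries reached at most 2.90% there.

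**Figure D3:**
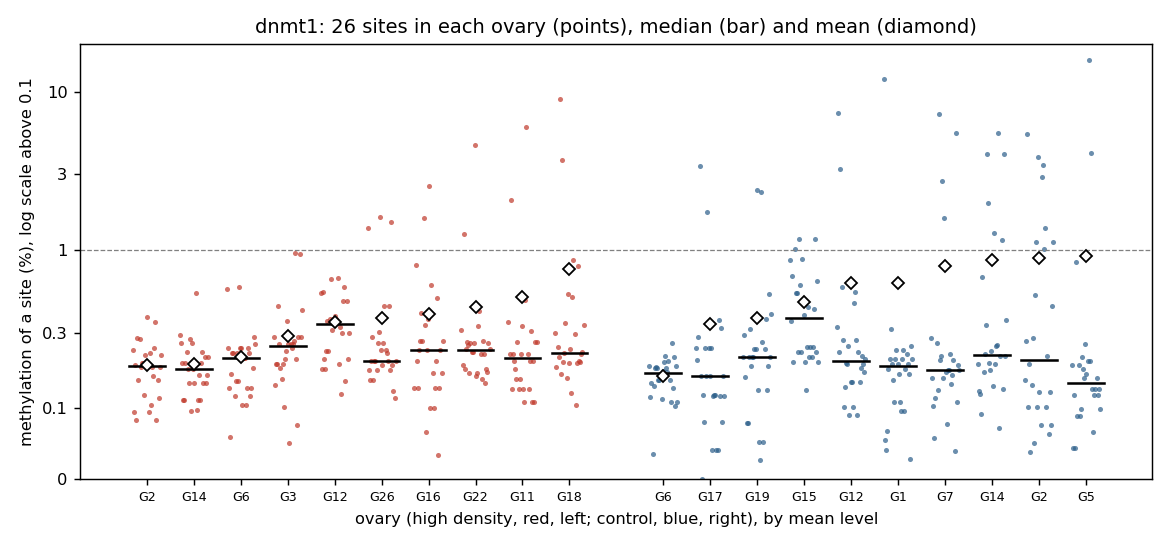
Methylation (%, log scale above 0.1) of the 26 *dnmt1* sites in each ovary, high density in red on the left and control in blue on the right, with each point a site, the bar the median and the diamond the mean of an ovary. The bars lie at similar heights in both groups, and single points above the dashed line at 1% (11 at high density, 30 in controls) pull the diamonds up.

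In *hsd17b1*, a pair of sites varied against each other. This was noticed in the data and is given as a description. Site -245 lay at 0.201%, 10.6% and 34.7% (lowest, median, highest) in high density ovaries and at 0.322%, 2.74% and 45.9% in control ovaries. Site -28 lay at 11.2%, 27.7% and 45.4% in high density ovaries and at 8.56%, 32.9% and 44.3% in control ovaries. Ovaries low at one tended to be high at the other, though not all were. Control ovary G17 lay below the median of its group at both, with 2.56% at -245 and 29.2% at -28. The other 4 sites of the amplicon were steadier, averaging 35.4% ± 8.79 at high density and 37.4% ± 7.08 in controls (SD, n = 10 each).

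Expressed as a percent of the mean of those 4 sites in the same ovary, the sum of -245 and -28 stayed between 105 and 131 in high density ovaries (median 117) and between 105 and 142 in control ovaries (median 112). The 2 ratios share that divisor, and the correlation of the ratios was -0.975 at high density and -0.985 in controls. The -245 ratio also left gaps. It was under 20% in 5 high density ovaries and 6 control ovaries, between 40% and 80% in 4 high density and 2 control ovaries, and over 90% in 1 high density and 2 control ovaries. No ovary lay between 16.4% and 49.9% or between 76.1% and 93.1%. Both densities held ovaries of each kind, and the mean of -245 was 13.7% in both groups.

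**Figure D4:**
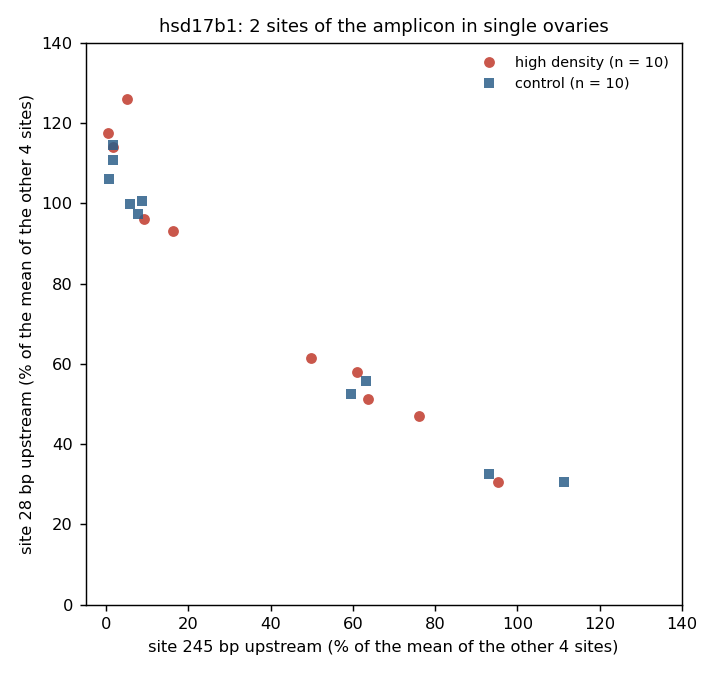
The *hsd17b1* site 245 bp upstream against the site 28 bp upstream, each as a percent of the mean of the other 4 sites, one point per ovary (high density red circles, control blue squares, n = 10 each). Points of both groups fall along one descending line, with gaps from 16.4% to 49.9% and from 76.1% to 93.1% on the horizontal axis.

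Levels of different genes were then compared over the 20 ovaries, with each level taken from its group mean so that density itself adds nothing. Of 15 pairs of genes 11 correlated positively and 4 of the 5 pairs with *dnmt1* negatively. After adjustment 2 of 15 (13.3%) passed. Ovaries with more methylation at the aromatase gene *cyp19a1a* had more at the estradiol-forming *hsd17b1* (*r* = 0.671, permutation *p* = 0.0023, adjusted 0.0210; Spearman's rho 0.638, permutation *p* = 0.0042, adjusted 0.0585). The testis factor *dmrt1* also went with *hsd17b1* (*r* = 0.622, permutation *p* = 0.0028, adjusted 0.0210; rho 0.596, permutation *p* = 0.0078, adjusted 0.0585). Over the deepest cytosines the same 2 of 15 (13.3%) passed, with *r* of 0.672 and 0.683, both adjusted to 0.0136 by permutation.

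The relations had the same sign within each density. *cyp19a1a* and *hsd17b1* gave *r* of 0.686 in high density ovaries and 0.647 in control ovaries, and *dmrt1* and *hsd17b1* gave 0.656 at high density and 0.647 in controls. Both rested partly on few fish. Without the 2 ovaries farthest from the median on the first gene, *r* was 0.606 for *cyp19a1a* and *hsd17b1* (without high density ovaries G12 and G16, adjusted permutation *p* = 0.137) and 0.537 for *dmrt1* and *hsd17b1* (without control ovaries G14 and G6, adjusted permutation *p* = 0.194). Leaving out high density ovary G12 alone ended both calls (*r* = 0.592 and 0.553, both adjusted to 0.0805 by permutation), and leaving out control ovary G6 ended the call of *dmrt1* and *hsd17b1* (*r* = 0.540, adjusted permutation *p* = 0.105). Without the *hsd17b1* sites -245 and -28, an alternative added after seeing the data, *r* at the deepest cytosines was 0.660 with *cyp19a1a* and 0.675 with *dmrt1*.

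Ranked over the 5 genes other than *dnmt1* at the deepest cytosines, with rank 20 the most methylated, high density ovary G12 had a mean rank of 18.2 and control ovary G6 one of 17.8. The lowest were high density ovaries G22 at 3.2, G16 at 4.2 and G18 at 5.6. The 4 ovaries ranked highest were 1 of high density and 3 of controls, while the 3 ranked lowest were all of high density. These counts depend on the cutoffs. The next lowest were control ovaries G7 at 7, G17 at 7.4 and G12 at 7.8, and the next highest was high density ovary G2 at 13.8.

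**Figure D5:**
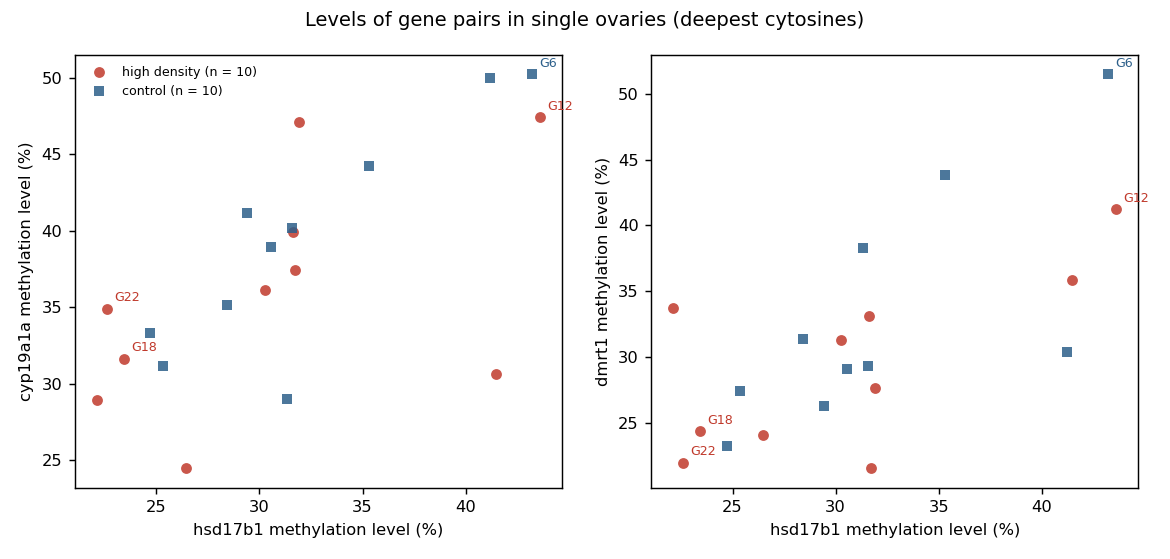
Methylation level (%) of *cyp19a1a* (left) and *dmrt1* (right) against that of *hsd17b1* at the deepest cytosines, one point per ovary (high density red circles, control blue squares, n = 10 each). High density ovary G12 and control ovary G6 lie at the upper right and high density ovaries G18 and G22 at the lower left in both panels.

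The correlations were also set side by side for the densities. Over all cytosines the pairs that lay farthest apart all held *cyp11c1*, the cortisol-forming gene. *dmrt1* and *cyp11c1* had *r* of 0.829 in high density ovaries and -0.123 in control ovaries, *cyp19a1a* and *cyp11c1* had 0.707 at high density and -0.182 in controls, and *cyp11c1* and *hsd17b1* had 0.698 at high density and -0.318 in controls. *cyp11c1* and *hsd11b2* had 0.530 at high density and -0.267 in controls. Tested as differences of Fisher-transformed correlations, with fish relabelled between densities, 0 of 15 pairs (0%) passed after adjustment and 1 of 15 (6.67%) had an unadjusted permutation *p* under 0.05, *cyp11c1* with *hsd11b2* (difference 0.864, permutation *p* = 0.0451, adjusted 0.338). For *dmrt1* with *cyp11c1* the permutation *p* of the difference was 0.139 (adjusted 0.366). Over the deepest cytosines this pair had *r* of 0.601 at high density and 0.321 in controls, and *cyp11c1* with *hsd17b1* 0.414 and 0.0824. There *cyp11c1* kept opposite signs with *cyp19a1a* (0.721 and -0.174) and *hsd11b2* (0.542 and -0.154). Leaving out control ovary G6 moved *dmrt1* with *cyp11c1* over both groups and all cytosines from 0.211 to 0.643. The correlations at high density and in controls were therefore not shown to differ.

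Between ovaries and testes, 2 of 15 pairs (13.3%) differed in correlation after adjustment. *dmrt1* and *hsd17b1* correlated at 0.622 in ovaries and at -0.364 in testes (difference of Fisher-transformed *r* 1.11, permutation *p* = 0.0006, adjusted 0.0093). *cyp11c1* and *hsd11b2* correlated at 0.0549 in ovaries and at 0.746 in testes (difference -0.908, permutation *p* = 0.0054, adjusted 0.0409). Over the deepest cytosines the differences were 1.28 (adjusted permutation *p* = 0.287) and -0.510 (adjusted 0.624). With levels there divided by the SD of their group they were 1.34 (adjusted permutation *p* = 0.0045) and -0.423 (adjusted 0.416). *dmrt1* and *hsd11b2* then passed as well (1.05, adjusted permutation *p* = 0.0211). The calls thus depended on the cytosines averaged and on the scaling of the levels. The density differences themselves were not shown to depend on the sex. For *dnmt1*, the difference in ovaries minus that in testes was -0.205 percentage points (permutation *p* = 0.0524, adjusted 0.314), and the adjusted permutation *p* of the other 5 genes lay between 0.748 and 0.811.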

How the data were processed

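Bisulfite amplicons of 6 promoters were sequenced from single gonads. Per the submitters' processing notes, reads were trimmed with Trim Galore 0.4.5, checked with FastQC 0.11.6 and mapped to GRCz11 with Bowtie2 and Bismark 16.0; the methods also name deduplication, which in amplicon data can remove independent molecules, and they and the labels name different sequencers. Deduplication lowers the counts but keeps a percent comparable only if both states are removed alike. The deposited lists hold, per cytosine and fish, the percent of methylated reads and, as made by the authors, the counts of methylated and unmethylated reads. The percent equalled the share of the counts in 7221 of 7221 values (within 1e-06). Amplicon positions, primers and start sites were taken from the supplementary amplicon table. No reference sequence was used.

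Of 3501 values in the ovary lists 3135 lay inside amplicons and 2396 had more than 5 reads, while 739 did not. They fell on 145 cytosines, 104 of them used in all 20 ovaries. The deepest cytosines, by median coverage over 40 gonads, gave 1980 values and the others 416. Groups were compared by two-sided exact permutation tests of the mean, correlations and the comparisons between sexes by 100000 permutations, all with Benjamini-Hochberg adjustment within a family and a threshold of 0.05. Intervals of 95% for a difference of means were had by inverting the exact test. Each fish is a replicate.

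The cytosines named were, per gene, those with the smallest *p*, the largest difference, the highest and lowest level and the largest SD, and of pairs of genes those past the threshold or else the 3 with the smallest *p*. The lowest levels were 0% at *dnmt1* -181, *cyp19a1a* +138, *cyp11c1* +167 and *hsd11b2* +78. The members and lists were chosen with earlier results of these data known. Alternatives were other coverage minimums, the deepest cytosines, medians, pooled reads, a correction for bisulfite conversion and ovaries of low depth left out. Others were each ovary left out, rank correlation and a replicate block. The tests were checked on simulated data in which sites varied independently of each other. Changes were placed there only at sites of middle level, so the check does not cover a change at sites near 0, such as those of *dnmt1*. All tests were run in Python 3.11.15 (scipy 1.17.1, numpy 2.4.6, pandas 2.3.3), statsmodels 0.14.6 gave Tukey's comparison of 4 groups, and matplotlib 3.10.9 drew the plots.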

Additional observations from a re-analysis of the deposited data

Results flagged for a closer look

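Among 68 groups of 10 ovaries examined, 22 of gene levels and 46 of single sites, 5 held an ovary far from the other 9, and none of the 5 was a gene level. About 1 in 20 groups would do so by chance if they were picked without regard to their values. The flagged sites were picked by their values, such as the smallest *p* or the largest difference, so that rate is no measure for them. In *cyp11c1* at position 54645605 control ovary G12 had 76.4% and the nearest other control ovary 93.7%. The other 4 were *dnmt1* sites with levels near 0. At position 54352579 high density ovary G3 had 0.956% (nearest 0.444%), and at 54352632 high density ovary G16 had 2.54% (nearest 0.382%). At 54352619 control ovary G5 had 15.9% (nearest 2.90%), and at 54352688 control ovary G15 had 0.537% (nearest 0.271%).

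In 2 pairs of genes the correlation over ovaries differed from that over testes by a test of the difference itself. *dmrt1* and *hsd17b1* gave a difference of Fisher-transformed *r* of 1.11 (permutation *p* = 0.0006, adjusted over 15 pairs 0.0093). *cyp11c1* and *hsd11b2* gave -0.908 (permutation *p* = 0.0054, adjusted 0.0409). The spread of the levels also differed between the sexes, as given above for *hsd17b1* and *hsd11b2*. Its part in these differences was not tested beyond dividing levels by the SD of their group. This gave adjusted permutation *p* of 0.0549 and 0.0894 over all cytosines, and of 0.0045 and 0.416 over the deepest.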

How the results depend on the processing

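Of 715 values recomputed under an alternative, 631 kept direction and side of the threshold. With no coverage minimum *dnmt1* differed by -0.591 (adjusted exact *p* = 0.0299, over its 15 alternatives 0.0299 to 0.875), making 1 of 6 genes, and *cyp19a1a* by 0.521. With the median over cytosines *dnmt1* differed by 0.0282 and *hsd11b2* by -0.574. *hsd11b2* was -0.289 at the deepest cytosines, -0.108 at cytosines used in every ovary and -0.241 on pooled reads. Shared fish numbers did not pair ovaries: over 99 sites the correlations of the 4 pairs were 0.144, 0.239, -0.380 and -0.396. With the replicate block *dnmt1* gave -0.348 (smallest *p* allowed 0.125), *cyp11c1* 5.56 and *hsd17b1* 0.864. Leaving out 1 ovary each, the gene count was 0 to 1, *dnmt1* -0.278 to -0.202, *dmrt1* -4.89 to -1.53, *cyp19a1a* -3.36 to -0.457, *cyp11c1* -3.17 to -0.607, *hsd17b1* -2.36 to 0.526, *hsd11b2* -0.440 to 1.85, the spread of *dmrt1* -1.33 to 1.36 and of *hsd11b2* -1.28 to 0.313.

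Single cytosines unadjusted numbered 8 without ovaries under 20000 reads, 9 by the quasi-binomial model and 89 by Fisher's test (87 adjusted). Signs turned at *cyp11c1* 54645690 (-2.70 without shallow ovaries, -1.85 on pooled reads), *dnmt1* 54352688 (-0.00997 without shallow ovaries) and, on pooled reads, *cyp19a1a* 39655215 (-2.01) and *dmrt1* 44344819 (-0.392). They turned also for the *cyp19a1a* spread at the deepest cytosines (-0.0785) and the *dnmt1* coverage as a share (-0.00643). The cause was not tested.

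Calls of correlated pairs numbered 0 by rank, 1 with 30 reads or more, 1 without shallow ovaries, 0 without the 2 farthest ovaries, 0 without high density G12 and control G6 (added after seeing the data) and 0 to 2 without 1 ovary. *dmrt1* and *hsd17b1* gave 0.595, 0.526, 0.592, 0.537 and 0.422 in these settings, and 0.540 to 0.689 without 1 ovary. *cyp19a1a* and *hsd17b1* gave 0.638 by rank, 0.606 without the 2 farthest, 0.581 without G12 and G6 (*r*), and 0.592 to 0.765 without 1 ovary. Ovaries against testes gave 0 pairs at the deepest cytosines (1.28 and -0.510) and 0 with levels over all cytosines divided by their SD (1.18 and -0.831). With both changes *dmrt1* passed with *hsd17b1* (1.34) and with *hsd11b2* (1.05). A list of reference CpG sites was not run. With at least 30 reads, 7 control ovaries were left for *dmrt1*, which depth limits most.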

Other observations

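Cytosines outside the 6 amplicons were listed for every ovary with few reads each. High density ovaries held 157 such values with 729 reads and control ovaries 209 with 930 reads, of which 42 at high density and 56 in controls had more than 5 reads. Their methylation averaged 70.1% over high density ovaries and 65.2% over control ovaries (exact permutation *p* = 0.372, n = 10 each).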
